A study of Arabidopsis thaliana with 12 samples.

Results

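Seed reserves were followed here through 10 Arabidopsis thaliana genes: the vicilin-like storage protein gene PAP85 (AT3G22640), the cupin loci AT1G03890, AT2G28490, AT4G36700 and AT2G18540, the oleosin loci AT3G01570, AT5G51210 (OLEO3), AT1G48990 and AT3G18570, and the seed dehydrogenase-like gene AT1G54870. They were named as a list, and a gene was used where the probe annotation pairs a probe set with it alone. That held for 9 of the 10, out of 13286 genes with a probe set of their own; 8 were matched by locus or symbol and OLEO3 by its gene ID. AT1G48990 had no such probe set and is not analysed here. Each of the 9 was read by 1 probe set. PAP85 and AT1G54870 were selected on their TiO2 minus KCl differences, and the lists were drawn up with that comparison known, so every TiO2 difference of these genes below is a description with no test. The CeO2 minus water difference uses none of those arrays and was tested. Its SE and p-value are not free of them, because the spread was pooled over all 12 arrays. With only the compared arrays none of the 9 passed either.

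A maturing seed fills its embryo with protein and oil. Cupins, a fold shared by the vicilin-like and 12S globulin-type storage proteins, are packed into protein storage vacuoles, and oleosins coat the oil bodies and keep them from fusing. Transcription of these genes runs under seed regulators such as ABI3 and FUS3 and under abscisic acid, and is switched off as the seedling establishes. The transcripts are stored in the dry seed and decline during germination, while the reserves are broken down to feed the seedling. In a seedling with green leaves they are usually scarce.

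RNA came from whole Columbia (Col-0) germinants aged 12 days and was hybridised to 12 Affymetrix arrays, 3 for each group. Titania germinants received TiO2 at 500 mg per L and were set against germinants on 0.1 mM KCl; ceria germinants received CeO2 at 500 mg per L and were set against germinants on sterile water. All groups were cold-treated for 48 hours at 4 °C and raised at 22 °C from batches of 50 seeds on a glass fibre disc with 2 mL of liquid, so each array pools many plants. The KCl and TiO2 arrays are labelled as biological replicates and the others only as replicates, and no label says what separates them, so p-values measure the spread between these arrays, which may be technical. Values are log2 expression per probe set. Array medians lay between 5.69 and 5.74 in the KCl and TiO2 arrays and between 5.88 and 5.92 in the water and CeO2 arrays, a split that goes with particle, control liquid and possibly a separate normalization, which cannot be told apart. Levels are therefore compared within each pair of groups, and levels across the pairs are only set side by side. The lowest value of any array was 2.30 to 2.51. Of the markers fixed for green shoot tissue 3 of 15 were measured; the rubisco activase gene RCA had means of 13.69, 13.72, 13.54 and 13.53 in KCl, TiO2, water and CeO2. Of the tapetum and pollen markers, tissues in which oleosins are also made, 2 of 7 were measured. AT5G07230 stayed between means of 3.32 and 3.44, and AT5G45880 between 4.54 and 4.85.

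In germinants on titania 7 of the 9 measured seed reserve genes were lower than in every KCl array, by 1.51-fold to 4.42-fold; of all probe sets 11.3% were lower with no overlap, and nothing is read from the 7 because this comparison helped to choose the genes. The 4 with the widest differences were AT1G54870, AT2G28490, AT3G01570 and PAP85. In germinants on ceria no seed reserve gene passed the test against water, which 2.42% of all probe sets did, and means differed by at most 0.43 log2. AT1G03890 and AT2G18540 stayed near the bottom of the scale in all 4 groups. Others were brighter: AT1G54870 lay above 45.8% to 84.8% of probe sets in an array. AT2G28490 lay above 47.2% to 83.2%, PAP85 above 40.0% to 82.4% and AT4G36700 above 24.7% to 44.1%. In bulk RNA, fewer cells that hold these transcripts and less of them per cell cannot be told apart.

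**Figure D1:**
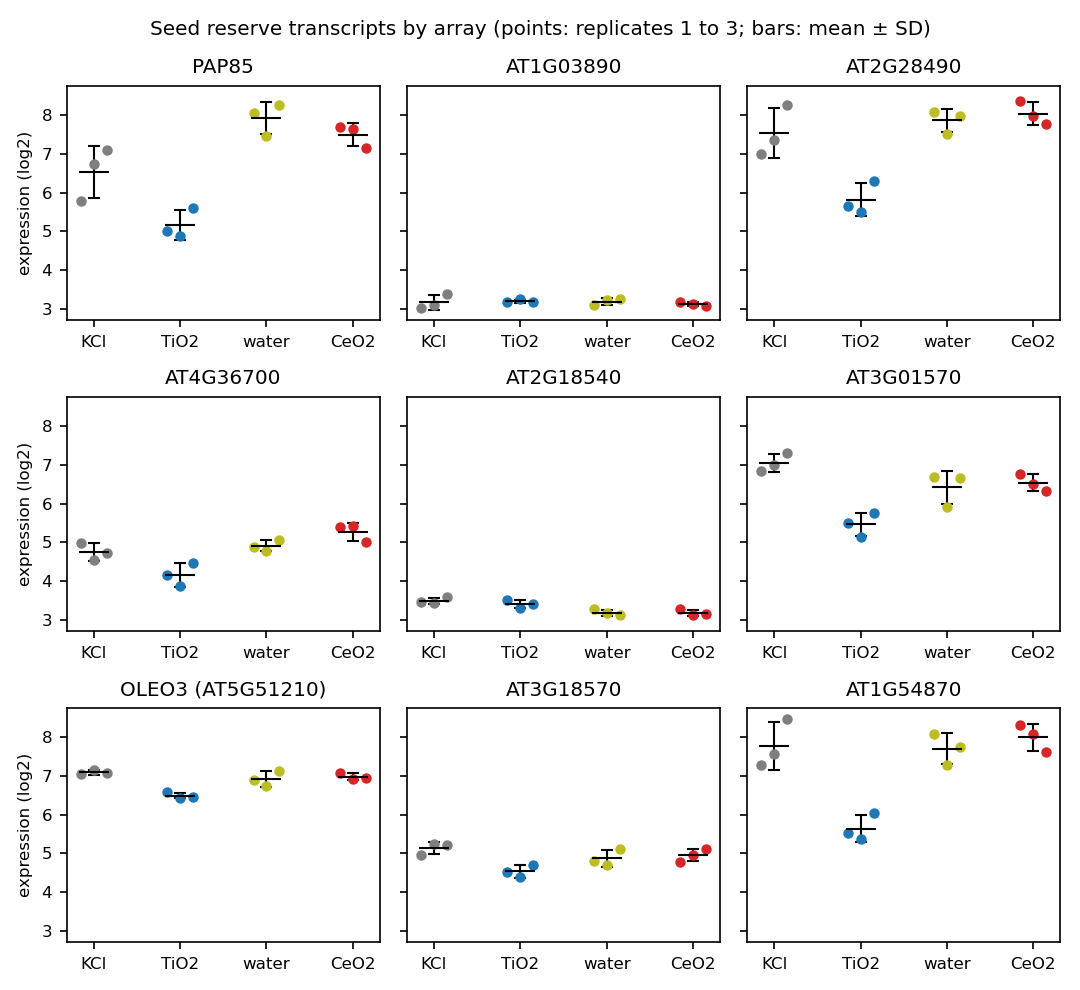
Expression (log2, vertical axis) of the 9 measured seed reserve genes in each array, by group; points are replicates 1 to 3 and the black bars the mean and SD. In 7 genes the 3 TiO2 arrays sit below all KCl arrays, while water and CeO2 overlap in all 9; AT1G03890 and AT2G18540 lie near 3 throughout.

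Among the storage proteins, PAP85 measured 5.79, 6.73 and 7.10 on KCl in replicates 1, 2 and 3, and 5.01, 4.87 and 5.60 on TiO2. The highest TiO2 array thus lay 0.20 below the lowest KCl array, the narrowest gap but one among the 7. The mean was 6.54 ± 0.67 (SD, n = 3) on KCl and 5.16 ± 0.38 on TiO2, a difference of −1.38 ± 0.28 (SE from the fit over all arrays). On water PAP85 measured 8.05, 7.47 and 8.26, and on CeO2 7.70, 7.64 and 7.16. These overlap, with CeO2 replicate 3 the lowest of the 6. The CeO2 difference was −0.43 ± 0.28, with a 95% interval of −1.02 to 0.17 (limma adjusted p = 0.740).

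AT2G28490, a vicilin-like cupin, measured 7.0, 7.37 and 8.26 on KCl against 5.66, 5.49 and 6.31 on TiO2. Its means of 7.54 ± 0.65 and 5.82 ± 0.44 differed by −1.72 ± 0.27, or 3.30-fold. KCl replicate 3 and TiO2 replicate 3 were the highest of their groups, as they were for PAP85. Water gave 8.08, 7.53 and 7.99, and CeO2 gave 8.36, 7.97 and 7.79, a difference of 0.17 ± 0.27 (interval −0.40 to 0.74, limma adjusted p = 0.950).

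AT4G36700, also a vicilin-like cupin, measured 4.99, 4.54 and 4.73 on KCl and 4.16, 3.86 and 4.46 on TiO2, a difference of −0.60 ± 0.16. The groups are parted by only 0.08, the narrowest gap among the 7. On water it measured 4.87, 4.78 and 5.06 and on CeO2 5.39, 5.43 and 5.0. It was the 1 gene of the 9 with an unadjusted p under 0.05 for CeO2, with a difference of 0.36 ± 0.16 and an interval of 0.03 to 0.70. The call did not survive adjustment over all probe sets (limma adjusted p = 0.420), and CeO2 replicate 3 lay among the water arrays.

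AT1G03890, which encodes a 12S globulin-type cupin, had means of 3.16 ± 0.19 on KCl, 3.19 ± 0.04 on TiO2, 3.18 ± 0.09 on water and 3.12 ± 0.05 on CeO2. Only 4.15% to 12.6% of probe sets in an array were dimmer. The cupin locus AT2G18540 had means of 3.48 ± 0.08, 3.41 ± 0.10, 3.18 ± 0.08 and 3.18 ± 0.08 in the same order, with 5.99% to 17.7% of probe sets dimmer. At this level a fall could hardly be seen. The limma adjusted p for CeO2 were 0.952 and 0.998.

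Of the oil body proteins, the oleosin AT3G01570 measured 6.84, 6.99 and 7.30 on KCl and 5.49, 5.15 and 5.75 on TiO2. A gap of 1.09 parts the groups, and the difference of −1.58 ± 0.19 is 3.00-fold. On water it measured 6.69, 5.92 and 6.65 and on CeO2 6.77, 6.52 and 6.33, a difference of 0.12 ± 0.19 (interval −0.29 to 0.54, limma adjusted p = 0.951). Water replicate 2 was the lowest of those 6 arrays.

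OLEO3 was the steadiest of the 7, with 7.05, 7.16 and 7.07 on KCl and 6.58, 6.44 and 6.46 on TiO2. Its difference was −0.60 ± 0.10, or 1.52-fold, with a gap of 0.47 between the groups. It measured 6.91, 6.73 and 7.13 on water and 7.08, 6.92 and 6.95 on CeO2, a difference of 0.06 ± 0.10 (interval −0.16 to 0.27, limma adjusted p = 0.956).

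The third measured oleosin, AT3G18570, read 4.96, 5.23 and 5.22 on KCl and 4.52, 4.38 and 4.69 on TiO2, a difference of −0.61 ± 0.13. Here too no TiO2 array reached a KCl array. Water gave 4.80, 4.69 and 5.11 and CeO2 4.78, 4.96 and 5.12, a difference of 0.09 ± 0.13 (interval −0.18 to 0.35, limma adjusted p = 0.942).

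The dehydrogenase-like gene AT1G54870 had the widest titania difference of the 9. It measured 7.30, 7.58 and 8.48 on KCl and 5.52, 5.37 and 6.03 on TiO2, so the groups stand 1.26 apart. Means of 7.78 ± 0.62 and 5.64 ± 0.35 differed by −2.14 ± 0.27, or 4.42-fold. On water it measured 8.08, 7.28 and 7.76 and on CeO2 8.31, 8.09 and 7.62. The difference of 0.30 ± 0.27 had an interval of −0.28 to 0.87 (limma adjusted p = 0.860).

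**Figure D2:**
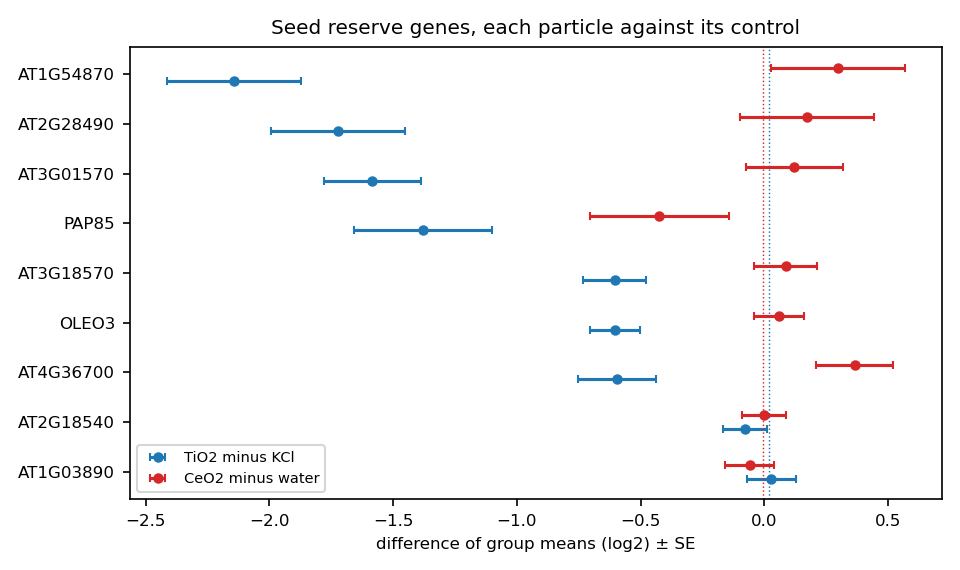
Difference of group means (log2, horizontal axis) for each measured seed reserve gene, TiO2 minus KCl in blue and CeO2 minus water in red; bars are the SE and dotted lines the median of all probe sets. The 7 genes above AT2G18540 lie between −2.14 and −0.60 on TiO2, and all red points lie between −0.43 and 0.36.

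As a set, the 9 genes had a median difference of −0.61 log2 on TiO2, against 0.02 over all 22746 probe sets. By class, the 5 cupins had a median of −0.60 (−1.72 to 0.03) and the 3 oleosins one of −0.61 (−1.58 to −0.60), so each class holds a gene with a wide difference and a gene with a narrow one. On CeO2 the median was 0.09, against −0.01 over all probe sets. None of the 9 passed the threshold of 0.05 by limma, and 1 had an unadjusted p under it, as 9.8% of all probe sets had. No gene of the 9 had CeO2 and water arrays that did not overlap, while 8.26% of all probe sets were higher and 8.54% lower with no overlap. The CeO2 difference minus the TiO2 difference ran from 0.66 ± 0.14 for OLEO3 to 2.44 ± 0.38 for AT1G54870 in those 7; it contains the TiO2 contrast and is given with no test.

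Set side by side across the pairs, TiO2 was the lowest group for 7 of the 9 genes, with its 3 arrays below all other arrays. Of all probe sets 6.02% have this pattern. These 7 are the genes that were lower than in every KCl array. Nothing is read from their number, because that comparison helped to choose the genes. The controls did not keep 1 order. PAP85 was at 7.92 ± 0.41 on water against 6.54 ± 0.67 on KCl, with CeO2 at 7.50 ± 0.30, and its CeO2 arrays lay above its KCl arrays. AT3G01570 ran the other way, with 6.42 ± 0.43 on water, 6.54 ± 0.22 on CeO2 and 7.05 ± 0.24 on KCl, its KCl arrays above its CeO2 arrays. For AT2G28490, AT4G36700, OLEO3, AT3G18570 and AT1G54870 the 3 groups other than TiO2 overlapped with their neighbours in the order of means. These differences across the pairs were not tested.

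The arrays of a group differed from each other in most of these transcripts. The SD within groups, pooled over the 4 groups, was 0.46 for PAP85, 0.45 for AT1G54870, 0.44 for AT2G28490 and 0.31 for AT3G01570. Between 98.8% and 99.8% of all probe sets had a smaller one, and the median over all probe sets was 0.13. OLEO3, at 0.12, was below that median, and AT3G18570 and AT4G36700 were at 0.18 and 0.24.

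**Figure D3:**
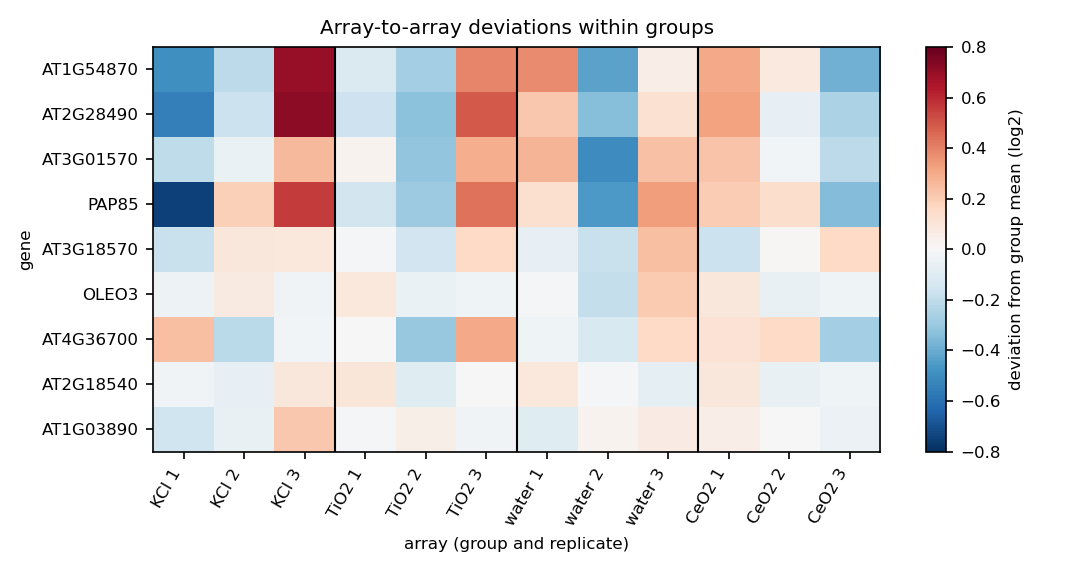
Deviation of each array from its group mean (log2, colour) for the 9 measured seed reserve genes (rows, widest TiO2 difference on top) in the 12 arrays (columns, black lines between groups). The top 4 rows change colour together, from KCl replicate 1 and water replicate 2 (blue) to KCl and TiO2 replicate 3 (red).

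These deviations went together in the 4 genes with the widest titania differences, a choice made on those differences. Over the 12 arrays, as deviations from the group means, Pearson r of their 6 pairs ran from 0.83 to 0.97, and the pair AT2G28490 and AT1G54870 had the highest. Over all 36 pairs of the 9 genes the median was 0.42 (−0.18 to 0.97). This is a description of 12 arrays, which share hybridisation and normalization; group means were taken out before r was computed. TiO2 replicate 2 was the lowest array of its group for all 7 genes whose TiO2 arrays lay below every KCl array. So was water replicate 2, while over all probe sets 38.9% and 33.8% were lowest there. KCl replicate 1 was lowest of its group for 6 of the 7, CeO2 replicate 3 for 5, and TiO2 replicate 3 highest for 6. Over all probe sets the shares were 34.2%, 34.2% and 37.7% in the same order. Mean deviations of the 7 genes were −0.28 in KCl replicate 1 and 0.32 in KCl replicate 3.

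Probe sets of other genes were ranked by the r of their deviations to the mean deviation of the 9, among 178 with a pooled SD of at least 0.3. The 10 most alike were AT2G21820 (0.96), AT1G72100 (0.93), AT1G54860 (0.92), AT5G07330 (0.90), AT3G54940 (0.89), ATOEP16-2 (0.89), AT3G15670 (0.88), AT3G02480 (0.87), AT5G66780 (0.86) and AT1G04560 (0.85). ATOEP16-2 encodes a chloroplast outer envelope protein, and AT3G15670 was in the fixed list of late embryogenesis genes. AT1G54860 is the annotated gene next to AT1G54870. Of these 10, 9 fell on TiO2 by limma, as did 33 of the 178, against 5.86% of all probe sets. Genes of wide spread weigh most in the mean deviation, and these have the widest TiO2 differences of the 9. The 9 were chosen with this comparison known, so the count is no independent evidence. AT1G04560 fell by 1.90 ± 0.23 (limma adjusted p = 6.30e-05), from 7.34 to 5.44. AT2G21820 fell by 0.93 ± 0.25 (limma adjusted p = 0.0250), a call lost without KCl replicate 3 (0.0855) or TiO2 replicate 2 (0.123), with only the compared arrays (0.0710) and with an intensity trend (0.0697). AT5G66780 was at −0.69 (limma adjusted p = 0.161) and passed without TiO2 replicate 3, at −1.10 (0.00917), and with the replicate block (0.00154). Without TiO2 replicate 2 the count of falls was 5, as it was when the KCl and TiO2 arrays were fitted alone. None of the 10 passed the threshold on CeO2 in the main fit. With the replicate block AT3G02480 passed as higher on CeO2, at 0.53 (limma adjusted p = 0.0375). AT3G15670 did so with the replicate block (0.0111) and without KCl replicate 3 (0.0304).

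Other genes of seed reserves and of their use were taken from 8 lists of 93 genes, of which 25 had a probe set of their own. No 2S albumin (5 listed), no 12S cruciferin of the list (3 listed) and no gene of seed hormone metabolism (8 listed) was among them, and ABI3, FUS3, LEC1, LEC2, ABI5, DOG1, OLEO1, OLEO2, EM1 and EM6 had none either. On TiO2 10 of the 25 fell and 0 rose, where 5.86% and 4.72% of all probe sets did; the median of the 25 was −0.20. The lists were drawn up with this comparison known, so their counts on TiO2 are no independent evidence, and without M17 and AtLEA4-1, whose falls were known, 8 of 23 fell. On CeO2 0 of the 25 passed by limma, where 2.42% of all probe sets did. An unadjusted p under 0.05 was found for 4 of the 25 and for 9.8% of all probe sets, and the median of the 25 was 0.08.

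Late embryogenesis and desiccation genes, whose products protect dry tissue, gave 6 of those 10. Of 9 measured genes 6 fell on TiO2, where 5.86% of all probe sets did, and the list median was −0.96. Without M17 and AtLEA4-1 it was 4 of 7, with a median of −0.94, in a list drawn up with this comparison known. M17 measured 8.39, 8.56 and 9.30 on KCl and 5.67, 6.16 and 7.75 on TiO2, with TiO2 replicate 3 far above the others of its group. It fell by 2.22 ± 0.36 (limma adjusted p = 0.000763). AT3G15670 fell by 1.59 ± 0.22 (limma adjusted p = 0.000180), from 5.5, 5.66 and 6.46 to 4.15, 4.18 and 4.52. KCl replicate 3 and TiO2 replicate 3 were the highest of their groups in both genes. AT3G17520 fell by 0.97 ± 0.19 (limma adjusted p = 0.00257). AtLEA4-1 fell by 1.24 ± 0.25 (limma adjusted p = 0.00450). LEA4-5 was at −0.71 ± 0.22 (limma adjusted p = 0.0511) and passed in 4 alternatives, among them without TiO2 replicate 3, at −1.07 (0.000326). On CeO2 the median of this list was 0.07, and AT3G15670 was at 0.67 ± 0.22 (limma adjusted p = 0.181).

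Of 15 other oil body genes 5 were measured and 2 fell on TiO2, as did 5.86% of all probe sets. AT2G25890, listed as an oleosin, fell by 0.56 ± 0.15 (limma adjusted p = 0.0209), close to the oleosins OLEO3 and AT3G18570; leaving out KCl replicate 3 ended the call (limma adjusted p = 0.0733), and so did leaving out TiO2 replicate 1 (0.0734) or replicate 2 (0.0793) and fitting the KCl and TiO2 arrays alone (0.0620). AT1G67360, listed as a lipid droplet protein, fell by 0.52 ± 0.10 (limma adjusted p = 0.00271), from 9.79 ± 0.21 to 9.27 ± 0.08. The other lipid droplet genes of the list, AT2G47780 and AT3G05500, were at 0.15 and 0.06. The median of the 5 was 0.06 on TiO2 and 0.08 on CeO2.

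In storage protein sorting and processing 2 of 5 measured genes fell on TiO2, as did 5.86% of all probe sets, and the list median was −0.10. Both encode vacuolar processing enzymes, proteases that cut storage proteins in the vacuole. GAMMA-VPE, of vegetative tissue, fell by 0.47 ± 0.10 (limma adjusted p = 0.00505) and BETA-VPE, the seed form, by 0.37 ± 0.10 (limma adjusted p = 0.0317). The BETA-VPE call was lost without KCl replicates 2 or 3 or TiO2 replicates 1 or 2 (adjusted p of 0.0889 to 0.123), after a second quantile normalization (0.0568) and with only the compared arrays (0.0934). DELTA-VPE, expressed in the seed coat, was at 0.60 ± 0.20 (limma adjusted p = 0.0687). It passed as higher without KCl replicate 3, at 0.88 (0.00134), without TiO2 replicate 1, at 0.75 (0.0419), and with the replicate block (0.00114). Reserve breakdown genes did not pass in either comparison, 0 of 4 measured of 19. Isocitrate lyase (ICL), of the glyoxylate cycle that turns stored oil into sugar, was at −0.01 ± 0.08 on TiO2, and SDP1, the main oil body lipase, at 0.14 ± 0.10. Of the regulators 2 of 17 were measured and none passed; BZIP53, which activates seed storage genes, was at −0.26 ± 0.12 on TiO2 (limma adjusted p = 0.236), and without KCl replicate 3 it passed as lower, at −0.41 (0.0259).

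**Figure D4:**
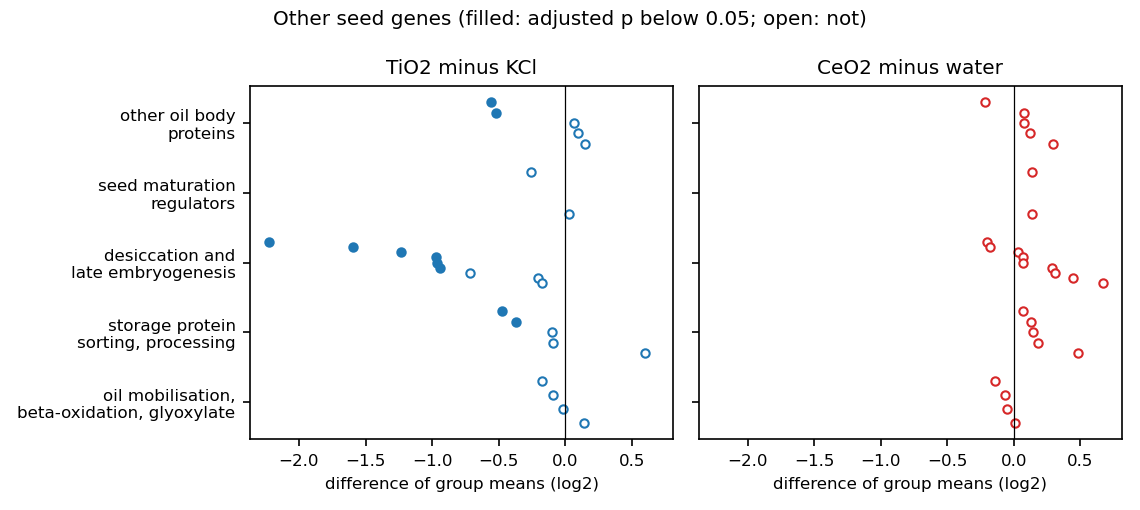
Difference of group means (log2, horizontal axis) for the 25 measured genes of the other seed lists (rows of points), TiO2 minus KCl at left and CeO2 minus water at right; filled points passed the limma threshold. All 10 filled points are on TiO2 and below 0, and 6 of them belong to desiccation and late embryogenesis.

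Tissue markers moved with the particles too, a result known for most of these markers when they were chosen. On TiO2 2 of 3 green shoot markers fell, where 5.86% of all probe sets did, LHCB4.2 by 0.35 and PSAE-1 by 0.34, while RCA was at 0.03. RCA too lay toward the top of the scale, with means of 13.69 on KCl and 13.72 on TiO2. The PSAE-1 call was lost in 14 of the 18 alternatives and that of LHCB4.2 in 5 (limma adjusted p of 0.0502 to 0.173 and of 0.0785 to 0.108); without KCl replicate 3 PSAE-1 was at −0.22. For the green shoot markers, log2 of the summed level of the 3 ran from 14.84 to 15.09 on KCl and from 14.71 to 14.85 on TiO2, which overlap. Of 3 measured root markers of 13, AT4G26010 fell by 0.44 on TiO2, a call lost without KCl replicate 2 or TiO2 replicates 1 or 3 (limma adjusted p of 0.0646 to 0.109), and EXPA7 passed as higher without TiO2 replicate 1 (0.0492). For the root markers, log2 of the sum went from 11.34 to 11.55 on KCl and from 11.12 to 11.27 on TiO2, with no overlap. AT4G26010 weighs most in that sum, with a KCl mean of 11.05 against 8.15 for EXPA7 and 8.56 for EXPA18. EXPA7 and EXPA18 were at 0.34 and 0.07 on TiO2, and the median of the 3 was 0.07. On CeO2 all 3 measured root markers rose, by 0.96 to 1.44, where 1.26% of all probe sets did. Log2 of their sum was 11.82 to 12.07 on CeO2 against 10.42 to 10.85 on water. PIN2, SCR, SHR, WER and CASP1, also root markers of the list, had no probe set of their own. Root tissue as a whole is therefore not read here. The part of tissue proportions in the seed reserve values was not tested.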

How the data were processed

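For 12 arrays the authors deposited RMA expression values on a log2 scale, 1 per probe set, per the submitters' processing notes; its version, the probe definitions and whether all arrays were normalized together are not given in the sources used here. All 22746 probe sets were used, and no column was left out. Genes came from the platform annotation and the RefSeq table of assembly TAIR10.1: 13513 probe sets had 1 gene, 13436 of them a RefSeq locus. A gene was read by its brightest probe set of 1 gene.

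Differences were fitted with limma 3.58.1 in R 4.3.3, 1 mean per group over 12 arrays (8 residual and 7.63 prior degrees of freedom), two-sided, with Benjamini-Hochberg adjustment over all probe sets and a threshold of 0.05. Errors after differences are SE, after means SD over 3 arrays. The number of arrays limits the precision. The fit was tested on simulated data with known changes. For changes of 0.5 log2 it found 61 of 107 on TiO2 and 51 of 104 on CeO2. For changes of 1 log2 it found 91 of 93 and 91 of 96. Changes of 0.5 log2 were thus often missed. The changed probe sets were drawn at random from all probe sets, whose median SD within groups was 0.13. PAP85, AT1G54870, AT2G28490 and AT3G01570 had SDs of 0.31 to 0.46, so these rates do not carry over to them.

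The genes and lists were chosen with earlier results of these data known. Named were the seed reserve genes, up to 4 genes past the threshold with the largest change per list and comparison, and the 10 genes most alike in deviations; others were added where a count or call needed them. Alternatives were a second quantile normalization, median centring, no dim probe sets (30%), compared arrays only, an intensity trend with a robust prior, a replicate block, and each array left out. Promoter and protein features planned for these genes were not analysed here.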

Additional observations from a re-analysis of the deposited data

Results flagged for a closer look

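Beside the seed reserve genes, 42 list, marker and most alike genes were tested for a difference between the particle effects (CeO2 effect minus TiO2 effect, limma over all probe sets), and 18 passed with adjusted p between 1.16e-05 and 0.0389; 8.06% of all probe sets did. Particle, control liquid and array set go together, so the 3 cannot be told apart.

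All 18 differences were positive; each contains the TiO2 comparison known when the lists were drawn up. Among late embryogenesis genes they were 2.26 log2 for AT3G15670, 2.04 for M17, 1.42 for AT3G17520, 1.27 for AtLEA4-1, 1.25 for AT3G53040 and 1.01 for the dehydrin gene LEA. The oil body genes AT2G25890 and AT1G67360 differed by 0.85 and 0.59, and the processing enzyme genes BETA-VPE and GAMMA-VPE by 0.55 and 0.61. Of the genes most alike in deviations, AT1G04560 differed by 2.32, AT3G02480 by 1.75, ATOEP16-2 by 1.33, AT5G07330 by 1.26, AT1G72100 by 1.17 and AT3G54940 by 1.12. The root markers AT4G26010 and EXPA18 differed by 1.70 and 1.37. Groups of 3 arrays are too small for the check on single outlying arrays.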

How the results depend on the processing

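No seed reserve gene passed on CeO2 in any of the 18 alternatives. The median TiO2 difference of the 9 genes moved from −0.61 to −1.38 without dim probe sets, since AT1G03890 and AT2G18540 drop out there, and ran from −0.75 to −0.58 with single arrays left out. The median CeO2 difference ran from −0.01 without water replicate 2 to 0.21 without water replicate 3. The CeO2 value of AT2G18540, at −0.0022, changed sign after a second quantile normalization (0.013) and median centring (0.0034), and ran from −0.047 to 0.040 with single arrays left out. Leaving out water replicate 2 turned AT3G01570 (−0.13 to 0.26 over the arrays left out), OLEO3 (−0.037 to 0.16) and AT3G18570 (−0.0028 to 0.21). Over all probe sets 2407 passed on TiO2, and 1432 with only the compared arrays; leaving out arrays gave 1782 to 2551, and on CeO2 382 to 640 against 550. Of the other seed genes 8 to 11 fell on TiO2, and 1 (DELTA-VPE) was higher with the replicate block and without KCl replicate 3 or TiO2 replicate 1; the totals were 8 to 12. On CeO2 1 passed with only the compared arrays (DELTA-VPE), 3 with the replicate block (AT3G15670, AT3G17520 and DELTA-VPE) and 0 to 1 with single arrays left out (AT3G15670 without KCl replicate 3); the cause was not tested. No label says whether arrays of the same number share a batch. Deviations of same-numbered TiO2 and KCl arrays correlated by 0.05 to 0.27, and those of differently numbered ones by −0.29 to 0.22. For CeO2 and water these ranges were 0.002 to 0.30 and −0.23 to 0.17. Whether the numbers mark a pairing was not tested. The replicate block gave 2886 calls on TiO2 and 647 on CeO2. The 9 TiO2 calls among the 10 most alike genes, checked with alternatives added after the data were seen, numbered 5 to 10. Signal near the bottom of the scale limits AT1G03890 and AT2G18540.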
